A study of Mus musculus with 32 samples.

Results

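Dnm1, Dnm3, Synj1 and Snap91 are 4 genes of synaptic vesicle endocytosis, the retrieval of vesicle membrane at the nerve terminal, and their ac4C peaks in mouse hippocampus are described here. A peak was counted for a gene when the gene symbol of its row in a peak list was that gene. All 4 genes had peaks, with 62 peaks among the 148981 of the 16 lists, which name 13143 genes. Dnm1 and Dnm3 had 17 peaks each, Synj1 16 and Snap91 12. They came from 15 of the 16 lists, and 7 lists held all 4 genes. Dnm1 and Dnm3 each had a peak in 11 lists, Synj1 in 12 and Snap91 in 10, where the median over all genes was 6 lists.

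N4-acetylcytidine (ac4C) is an acetylated cytidine of RNA. In acRIP-seq, RNA broken into fragments is pulled down with an ac4C antibody and read beside unselected input RNA, and stretches with more reads after the pulldown are called as peaks. The series followed this mark in the hippocampus of C57BL6/J mice during learning and memory, and each of its 16 captured libraries has 1 peak list. Groups C and L, whose peak names read Control and Learning, gave 3 homogenate lists each on day 6. For the synapse fraction C and L have a single list each for days 1, 6 and 20. A further set holds 2 controls and 2 samples of a conditional knockout, cKO, and the peak names of both carry the letters AAV. The sources used here do not give the deleted gene, the driver of the deletion, the age of the mice or the learning task. Nor do the labels say that the samples came from separate animals, so the spread behind each p-value may be technical.

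The homogenate lists held 15182 to 16971 peaks, the synapse lists 5586 to 7293 and the control lists 4446 and 5132, against 1887 and 422 in the cKO lists. Read counts are not part of the lists and the depth is unknown, so a gene without a peak may have had one below the authors' threshold. In these bulk samples, a missing peak from fewer cells of a type cannot be told apart from one due to less RNA per cell. For the synapse on day 6, the list of L stops at position 118984776 of chromosome 7 in file order, before Snap91 on chromosome 9, and was left out for Snap91. Of 10 markers of hippocampal neurons, 6 to 10 had a peak in each homogenate list, 6 to 8 in each synapse list and 3 to 5 in each list of the cKO set. Of 5 endothelial and mural markers, 2 to 4, 0 to 1 and 0 had one. For 5 astrocyte markers these counts were 3 to 5, 2 to 5 and 0 to 4, and for 5 oligodendrocyte markers 4 to 5, 1 to 4 and 1 to 3. For 5 microglia markers they were 3 to 5, 2 to 4 and 1 to 2, and for 3 choroid plexus markers 1, 0 and 0. Every fold given for a peak is the authors' enrichment value and ranks peaks within 1 list only.

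Vesicle membrane that has fused with the presynaptic plasma membrane is recovered in steps. Snap91 encodes AP180, a clathrin assembly protein that binds membrane lipid and helps to set the size of the vesicle. Dnm1 and Dnm3 encode dynamins, large GTPases that pinch the bud from the membrane, and Dnm1 is the main dynamin of neurons. Synj1 encodes synaptojanin 1, a phosphoinositide phosphatase that lets the clathrin coat come off the new vesicle.

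In the RefSeq table of GRCm38.p6, the mm10 assembly, all 4 genes lie on the minus strand. Their spans are chr2:32308471-32353349 for Dnm1, chr1:161982450-162478321 for Dnm3, chr16:90936092-91013727 for Synj1 and chr9:86765923-86880734 for Snap91. The promoter windows of Dnm1, Dnm3 and Synj1 are shown because peaks of these genes reached into them. Each window runs from 250 bases before to 50 bases after the transcription start site, on the minus strand, 5′ to 3′, and capitals mark bases inside a peak of that gene in at least 1 list. They lie at chr2:32353280-32353579, chr1:162477985-162478284 and chr16:91011259-91011558.
Dnm1: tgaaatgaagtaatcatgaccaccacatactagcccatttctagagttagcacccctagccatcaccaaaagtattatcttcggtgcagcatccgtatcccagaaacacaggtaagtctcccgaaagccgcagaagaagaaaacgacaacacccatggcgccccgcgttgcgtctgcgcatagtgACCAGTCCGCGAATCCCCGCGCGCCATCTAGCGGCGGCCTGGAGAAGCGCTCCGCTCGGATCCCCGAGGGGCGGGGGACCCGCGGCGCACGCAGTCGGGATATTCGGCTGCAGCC
Dnm3: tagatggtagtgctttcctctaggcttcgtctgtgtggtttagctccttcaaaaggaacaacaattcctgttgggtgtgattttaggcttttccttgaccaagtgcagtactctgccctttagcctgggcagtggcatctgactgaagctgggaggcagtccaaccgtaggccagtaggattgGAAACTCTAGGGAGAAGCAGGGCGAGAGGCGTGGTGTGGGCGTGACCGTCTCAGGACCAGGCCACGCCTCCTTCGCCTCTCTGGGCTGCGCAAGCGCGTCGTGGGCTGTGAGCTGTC
Synj1: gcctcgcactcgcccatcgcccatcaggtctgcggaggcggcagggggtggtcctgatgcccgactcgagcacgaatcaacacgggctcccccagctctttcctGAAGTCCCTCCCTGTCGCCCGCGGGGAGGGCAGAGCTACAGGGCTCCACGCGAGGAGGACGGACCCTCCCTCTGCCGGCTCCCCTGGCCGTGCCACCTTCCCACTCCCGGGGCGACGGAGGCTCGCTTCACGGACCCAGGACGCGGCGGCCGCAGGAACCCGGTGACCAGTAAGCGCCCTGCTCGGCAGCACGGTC
Peaks reached into the Dnm1 window in 4 lists, into the Dnm3 window in 9 and into this Synj1 window in 10. They covered 115, 117 and 196 of the 300 bases. Peaks of 11 lists reached into a further Synj1 window at chr16:91011046-91011345, and together they covered it whole. Snap91's window at chr9:86880659-86880958 held no peak base, and its nearest peak ended 92 bp from it. The GC content of the windows was 59.0% for Dnm1, 56.3% for Dnm3, 71.3% and 74.0% for Synj1 and 72.0% for Snap91, against a median of 52.7% over 32851 windows. The motif CNNCNNCNNCNN is a cytidine followed by 2 bases of any kind and repeated. With overlaps counted, it matched 1 time in the transcribed sense for Dnm1, 3 for Dnm3, 3 and 2 for Synj1 and 5 for Snap91. On the other strand it matched 3 times for Dnm1, 2 for Dnm3, 9 and 27 for Synj1 and 6 for Snap91. Of all windows, 69.1% hold it in the transcribed sense and 72.0% on the other strand.

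Joined over the lists on an overlap of 1 base, the 62 peaks formed 14 regions, of which 13 lay inside the span of the gene and 4 were found in 1 list. Of the 62 peaks, 38 (61.3%) lay within 2000 bp downstream of a start site. The matching share over all peaks of genes with a promoter window ranged from 30.3% to 84.9% between lists, with a median of 38.6%. This share differed by gene, from 4 of 17 Dnm1 peaks to 14 of 16 Synj1 peaks. Peaks of the 4 genes were 125 to 1383 bp wide, with a median of 410.5 bp, and 40 of the 62 were wider than the median peak of their own list. The exon structure was not used here, so places are given as distances from the start site to the centre of a peak or region.

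**Figure D1:**
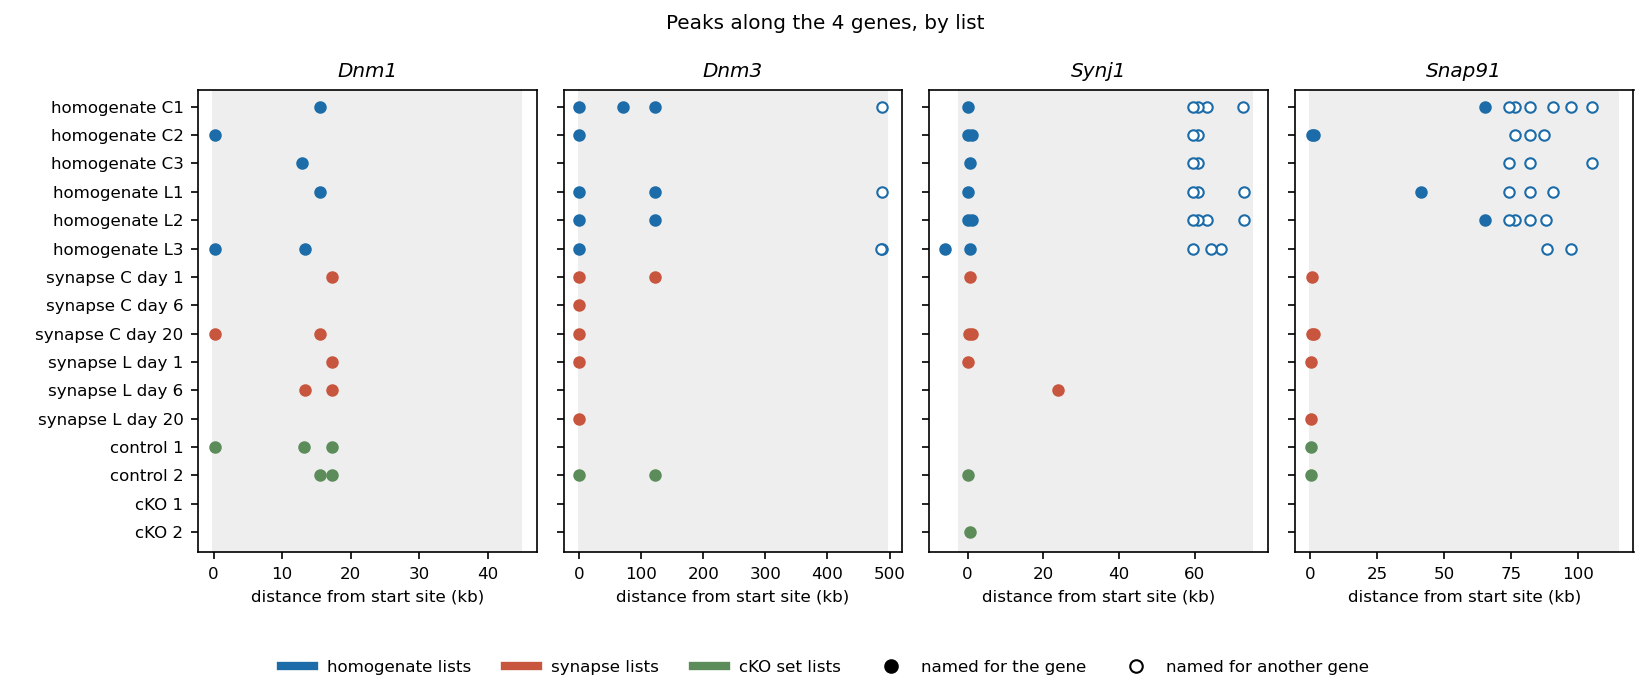
Centre of each peak as distance from the start site in kb, with 1 row per list and the gene span shaded. Filled points are peaks named for the gene and open points are peaks inside its span named for another gene. All open points, 4 in Dnm3, 18 in Synj1 and 21 in Snap91, lie in homogenate lists.

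For Snap91, peaks of 7 lists met within 1 kb of the start site, at chr9:86880003-86880567, and shared 157 bases at chr9:86880261-86880417. The lists were the second homogenate C list, both day 1 synapse lists, both day 20 synapse lists and both controls. The fold was 57.0 in homogenate C2, 19.7 in synapse C and 8.07 in synapse L on day 1, 13.2 in C and 11.8 in L on day 20, and 25.6 and 21.9 in the controls. These folds stood at the 81.7th to the 99.7th percentile of their own lists, and those of the controls at the 98.8th and the 99.7th. A second region 1.17 kb downstream, at chr9:86879304-86879780, was in homogenate C2 with a fold of 15.75 and in synapse C on day 20 with 2.87. The 3 other Snap91 peaks were in homogenate lists alone, 65.3 kb downstream in C1 and L2 and 41.2 kb downstream in L1, with folds of 2.01, 2.07 and 2.35. Those 3 ranked at or below the 8.38th percentile of their lists.

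Dnm1 had 4 regions and no list held all of them. One region lay at the start site, at chr2:32352864-32353394, in homogenate C2 and L3, synapse C on day 20 and control 1, with folds of 4.98, 6.06, 2.41 and 7.51. The other regions lay 12.9, 15.5 and 17.3 kb downstream. The region at chr2:32339816-32341035 was in homogenate C3 and L3, synapse L on day 6 and control 1, and the C3 peak there, 1164 bp wide, was the widest of the gene. The region at chr2:32337552-32338095 was in homogenate C1 and L1, synapse C on day 20 and control 2. The region farthest from the start, at chr2:32335696-32336309, was in 3 of the 6 synapse lists, C and L of day 1 and L of day 6, and in both controls. No homogenate list had a peak there under any gene name. The share of all synapse regions that lack a homogenate peak was not computed. Its folds were 3.56 and 4.28 on day 1, 12.03 in L on day 6 and 4.30 and 3.11 in the controls, and its 5 peaks shared 309 bases.

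Dnm3 peaks lay at the start site in 11 of the 16 lists, at chr1:162477486-162478101. It was in 5 synapse lists, 5 homogenate lists and control 2, and homogenate C3, synapse L on day 6, control 1 and both cKO lists did not. Its fold was 7.90 and 12.6 in homogenate C1 and C2 and 12.1, 17.9 and 6.23 in L1, L2 and L3. In the synapse lists it was 3.49 and 4.38 in C and L on day 1, 5.68 in C on day 6, and 3.57 and 4.83 in C and L on day 20. The synapse peaks ranked at the 30.9th to the 52.4th percentile of their lists, and 4 of the 5 homogenate peaks at or above the 75.9th. A region 122.6 kb downstream, at chr1:162355215-162355668, was in homogenate C1, L1 and L2, synapse C on day 1 and control 2, with folds of 2.45 to 8.29. Homogenate C1 alone held a further one 70.7 kb downstream.

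Synj1 peaks at the start site covered up to 1514 bp, at chr16:91009941-91011454, in all 6 homogenate lists, in C and L of day 1 and C of day 20 of the synapse, in control 2 and in cKO 2. The form differed between lists. Homogenate C3 and L3 and synapse C on day 1 had 1 peak of 1351 to 1383 bp across it, homogenate C2 and L2 and synapse C on day 20 had 2 separate peaks, and homogenate C1 and L1, synapse L on day 1 and control 2 had the peak nearer the start alone. Ranked within its own list, the peak of homogenate L1 stood highest, at the 89.0th percentile with a fold of 11.1, and the one of homogenate L2 farther from the start stood lowest, at the 7.69th with a fold of 2.52. The cKO 2 peak, at chr16:91010377-91011163 with a fold of 4.18, was the only peak of the 4 genes in a cKO list. Of the other Synj1 peaks, 1 lay 23.9 kb downstream in synapse L on day 6. The last, in homogenate L3, lay at -6.08 kb, which is before the start site and outside the span of Synj1.

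**Figure D2:**
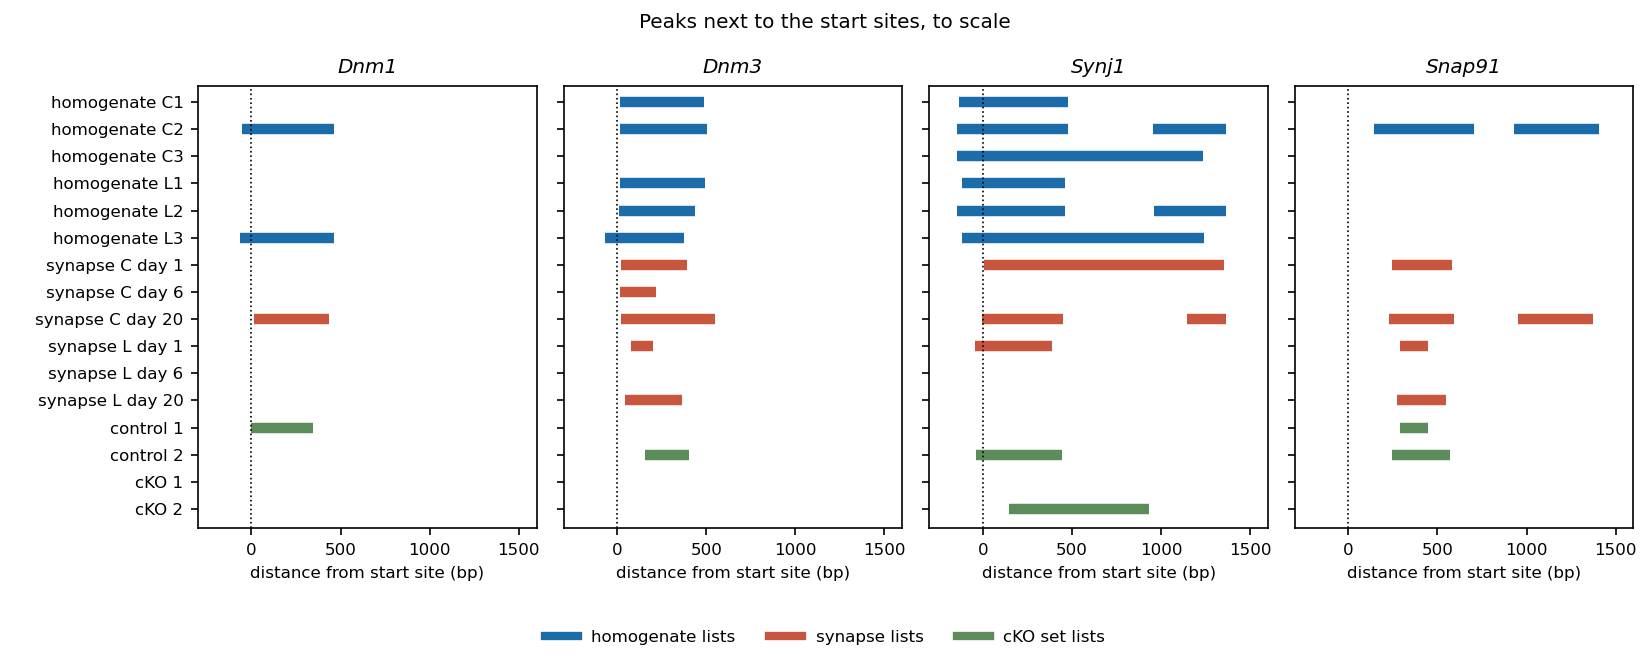
Peaks within 2000 bp downstream of each start site, drawn to scale, with distance in bp from the start site (dotted line) and 1 row per list. Dnm3 has a peak there in 11 lists, Synj1 in 11, Snap91 in 7 and Dnm1 in 4.

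**Figure D3:**
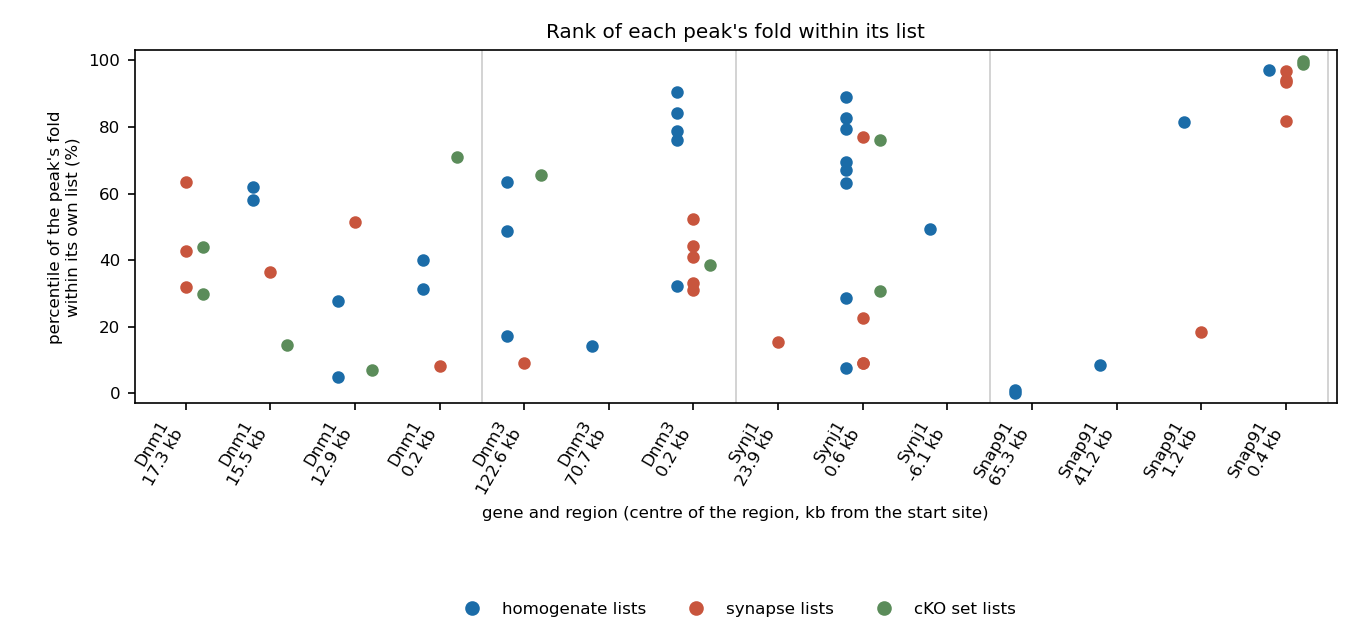
Percentile of each peak's fold within its own list, in %, for the 14 regions of the 4 genes, named by the distance of the region's centre from the start site in kb. The 7 Snap91 peaks 0.423 kb from the start lie at the 81.7th percentile or above.

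Further peaks inside these genes carried the names of other genes. Inside the span of Synj1 18 further peaks were named Cfap298, inside that of Snap91 21 were named Prss35, and inside that of Dnm3 4 were named 4930558K02Rik. All 43 were in homogenate lists, and each was nearer to the start site of the gene it was named for than to that of the endocytosis gene. Over all lists, 88.2% to 98.5% of peaks were named for the gene with the nearest start site, within 500 bp. Cfap298 had no peak in any synapse, control or cKO list, and Prss35 none in those of them that reach chromosome 9. Over all genes, the median was a peak in 5 homogenate lists and in 0 synapse, 0 control and 0 cKO lists. Strand is given as plus in every row, so the transcript behind a peak in overlapping genes was not told apart.

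The peaks in the last part of Synj1 recurred between homogenate lists. A region at chr16:90951610-90952082, 59.5 kb downstream of the start, was in all 6, and one at chr16:90950172-90950662 was in 5, with folds up to 10.5. For Snap91, a region at chr9:86798361-86798861, 82.1 kb downstream, was in 5 of the 6. Another at chr9:86806292-86806764 was in 4 and one at chr9:86791712-86793604 in 3, the last with a fold of 38.5 in homogenate L2. Counted by span, the 4 genes had 17, 21, 33 and 33 peaks for Dnm1, Dnm3, Synj1 and Snap91.

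The comparison of L with C in homogenate asked whether learning on day 6 went with a gain or loss of peaks. Dnm1 had 1, 1 and 1 peaks in C1 to C3 and 1, 0 and 2 in L1 to L3. Dnm3 had 3, 1 and 0 in C and 2, 2 and 1 in L. Synj1 had 1, 2 and 1 in C and 1, 2 and 2 in L. The ranges of C and L overlapped for each of these genes. Snap91 had 1, 2 and 0 in C and 1, 1 and 0 in L. The differences in means, L minus C, were 0 for Dnm1, 0.33 for Dnm3 and Synj1 and -0.33 for Snap91 (exact two-sided permutation p = 1 for each, adjusted p = 1, n = 3 each). With 20 assignments the test cannot give a p under 0.1, so it made no call among 12908 genes and none had an unadjusted p under 0.05. A peak in every L list with none in C, or the reverse, was seen for none of the 4 genes, and for 0.271% and 0.209% of genes with a homogenate peak. Counted by span, Synj1 had 5, 4 and 3 peaks in C and 4, 6 and 4 in L, and Snap91 7, 5 and 3 and 4, 5 and 2, which overlap as well.

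In the synapse fraction, 1 list of C and 1 of L a day allow no test. On day 1 each gene had a peak in both lists, with 1 and 1 peaks of Dnm1, 2 and 1 of Dnm3, 1 and 1 of Synj1 and 1 and 1 of Snap91 in C and L. Of genes with a peak that day, 17.9% had it only in L and 19.5% only in C. On day 6 the lists differed for 3 genes. Dnm1 had 0 peaks in C and 2 in L, Synj1 0 and 1, and Dnm3 1 and 0, against 23.0% of genes with peaks only in L and 17.5% only in C. Snap91 had none in C on day 6 and lay beyond the end of the L list. On day 20 Dnm1 and Synj1 had 2 peaks each in C and 0 in L, Dnm3 had 1 and 1, and Snap91 2 and 1. On that day 23.2% of genes had peaks only in C and 22.6% only in L. Dnm1 and Synj1 thus stood in L alone on day 6 and in C alone on day 20, but with peaks at different places. The Dnm1 peaks lay 17.3 and 13.3 kb downstream of the start on day 6 and 15.5 and 0.23 kb on day 20. The Synj1 peak of day 6 lay 23.9 kb downstream, and those of day 20 lay 1.26 and 0.22 kb downstream. The share of all genes with this pattern over both days was not computed. Over both fractions, L minus C was 0 for Dnm1 and Synj1, -0.17 for Dnm3 and -0.40 for Snap91 (stratified exact permutation p of 1, 1, 1 and 0.65, adjusted p = 1). That test made no call among 13115 genes, and 19 had an unadjusted p under 0.05.

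**Figure D4:**
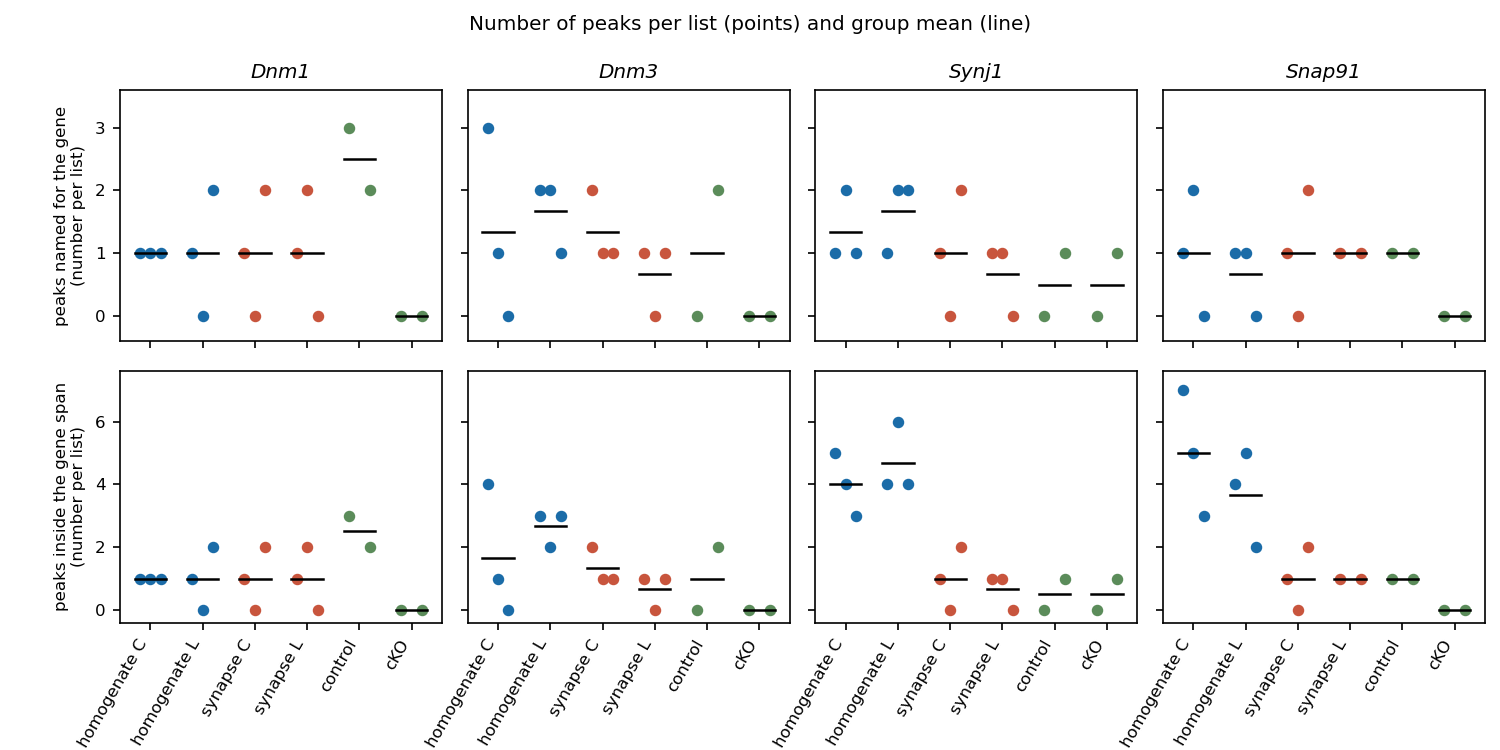
Number of peaks per list (points) with the group mean (line), by gene name in the upper row and by overlap with the gene span in the lower row. By span, the 6 homogenate lists held 3 to 6 Synj1 peaks and the synapse lists 0 to 2, while by name both ranges reached 2.

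Synapse was compared with homogenate to ask whether these transcripts carried peaks at synapses as in whole tissue. By name none of the 4 genes passed the test. Dnm1 had 1.00 ± 0.632 peaks per homogenate list and 1.00 ± 0.894 per synapse list (SD, n = 6 each), and Dnm3 1.5 ± 1.05 and 1.00 ± 0.632. Synj1 had 1.5 ± 0.548 and 0.833 ± 0.753 (SD, n = 6 each), and Snap91 0.833 ± 0.753 (n = 6) and 1.00 ± 0.707 (n = 5). The exact stratified permutation p was 1 for Dnm1, 0.545 for Dnm3, 0.255 for Synj1 and 1 for Snap91, and 1, 0.801, 0.495 and 1 after Benjamini-Hochberg adjustment over 13115 genes. Of all genes, 14.3% had fewer peaks in synapse at an adjusted p under 0.05 and 0.0915% had more. With the 2 lists that share a number or a day averaged, where no exact p under 0.1 is possible, 0 genes were called. Without the synapse L list of day 1 or day 20, 0 were called as well, at a lowest adjusted p of 0.0533 and 0.0543 in the exact test, and 3428 and 3396 had an unadjusted p under 0.05. Synapse lists were shorter, and per 10000 peaks of a list all 4 genes were higher in synapse, by 0.94 for Dnm1, 0.64 for Dnm3, 0.39 for Synj1 and 1.12 for Snap91, with adjusted p of 0.352, 0.384, 0.794 and 0.185 in the same exact test. Synapse L of day 6 was scaled by the 6827 peaks it holds, though it ends on chromosome 7.

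Counted by span, with all other genes still counted by name, fewer peaks lay inside Synj1 in synapse. The span adds 18 peaks to Synj1, all named Cfap298, nearer to the start of that gene and in homogenate lists. Cfap298 had 5 to 8 peaks per homogenate list, some of them outside Synj1. It had none in a synapse list, and the median over all genes was a peak in 0 synapse lists. In the same way the span adds 21 peaks named Prss35 to Snap91. The transcript behind these peaks was not told apart. The 6 homogenate lists held 5, 4, 3, 4, 6 and 4 Synj1 peaks, C lists first, while over days 1, 6 and 20 the synapse lists held 1, 0 and 2 for C and 1, 1 and 0 for L. The groups did not overlap, at means of 4.33 ± 1.03 and 0.833 ± 0.753 (SD, n = 6 each; exact stratified permutation p = 0.005, the smallest possible, adjusted p = 0.0348). By name, 14.3% of all 13115 genes were called with fewer peaks in synapse. Other genes were not recounted by span, so no like share stands beside this call or the lack of overlap. Snap91 had 7, 5, 3, 4, 5 and 2 peaks in homogenate and 1, 0, 2, 1 and 1 in synapse, with one value of 2 shared. Its means were 4.33 ± 1.75 (n = 6) and 1.00 ± 0.707 (n = 5; exact permutation p = 0.01, adjusted p = 0.065), which did not pass. Per 10000 peaks, Synj1 by span was 2.65 in homogenate and 1.31 in synapse (exact permutation p = 0.06, adjusted p = 0.164), and the call was also lost without the synapse L list of day 1 or day 20 (adjusted p of 0.0532 and 0.0542). With peaks of a fold of at least 5 its adjusted p was 0.113, and with the 2 lists that share a number or a day averaged 0.298. Counts of markers with a peak also ran lower in synapse than in homogenate lists for several cell types, as given above. For all named genes the share with a peak was 23.8% to 28.8% in synapse lists and 61.7% to 69.8% in homogenate lists. The 23.8% belongs to synapse L of day 6, where genes beyond the end of the list count as without a peak. The part of cell types and of list length in the Synj1 difference was not tested.

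The cKO lists were set against their controls to ask whether peaks depend on the deleted gene. Dnm1 had 3 and 2 peaks in the controls and 0 in both cKO lists. Snap91 had 1 and 1, and 0 in both. Dnm3 had 0 and 2 in the controls and 0 in both cKO lists, and Synj1 had 0 and 1 in the controls and 0 and 1 in cKO. Dnm1 and Snap91 thus had a peak in both controls and neither cKO list, a pattern of 33.8% of the 4188 genes that the cKO set names, and no gene of the 4 had the reverse, seen for 1.00% of them. The differences in means, cKO minus control, were -2.5 for Dnm1, -1 for Dnm3, 0 for Synj1 and -1 for Snap91 (exact two-sided permutation p of 0.33, 1, 1 and 0.33, adjusted p of 0.833, 1, 1 and 0.833, n = 2 each). No p under 0.33 is possible with 2 lists against 2, no gene of 4188 was called and none had an unadjusted p under 0.05. With peaks of a fold of at least 5, Snap91 alone of the 4 genes kept the pattern. The share of all genes at that cutoff was not computed, and folds rank peaks within 1 list only. The first cKO list held 1887 peaks and the second 422, of at least 150 and 500 bp, and the part of list length and peak form in these differences was not tested.

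Peaks on other endocytosis genes were counted over 50 genes of coat assembly, membrane bending, scission and uncoating. Each homogenate list held a peak for 35 to 42 of the 50, or 70.0% to 84.0%, where 61.7% to 69.8% of all named genes had one. Each synapse list held 27 to 36, or 54.0% to 72.0%, against 23.8% to 28.8% of all genes. Genes beyond the end of synapse L of day 6 were counted as without a peak in it. The control lists held 24 and 29 of the 50, or 48.0% and 58.0%, against 22.2% and 24.1% of all genes, and the cKO lists 17 and 6, or 34% and 12%, against 12.5% and 3.15%. By the exact stratified permutation test, 1 of the 50 had fewer peaks in synapse, or 2%, against 14.3% of all genes, and 0 had more, with a median difference of -0.5 for the list and for all genes. By covered bases the order of these shares turned round, with 16 of the 50, or 32%, lower in synapse against 22.5% of all genes. Covered bases also depend on peak width, which differed between lists. The median width was 188 to 381 bp in synapse lists and 301 to 445 bp in homogenate lists. The smallest width was 125 to 200 bp in synapse lists and 200 bp in homogenate lists. The part of peak width was not tested. Ston1, an endocytic adaptor, was the gene called, with 1.5 ± 0.837 peaks per homogenate list and none in the 6 synapse lists (exact permutation adjusted p = 0.0348). Its call was lost without the synapse L list of day 1 or day 20, with a fold of at least 5, with a −log10 p of at least 10, on day 6 alone and with the 2 lists that share a number or a day averaged. Per 10000 peaks, 6 of the 50, or 12%, were higher in synapse against 4.78% of all genes, and 1, Ston1, or 2%, was lower against 13.8%, with medians of 0.67 for the list and -0.20 for all genes.

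**Figure D5:**
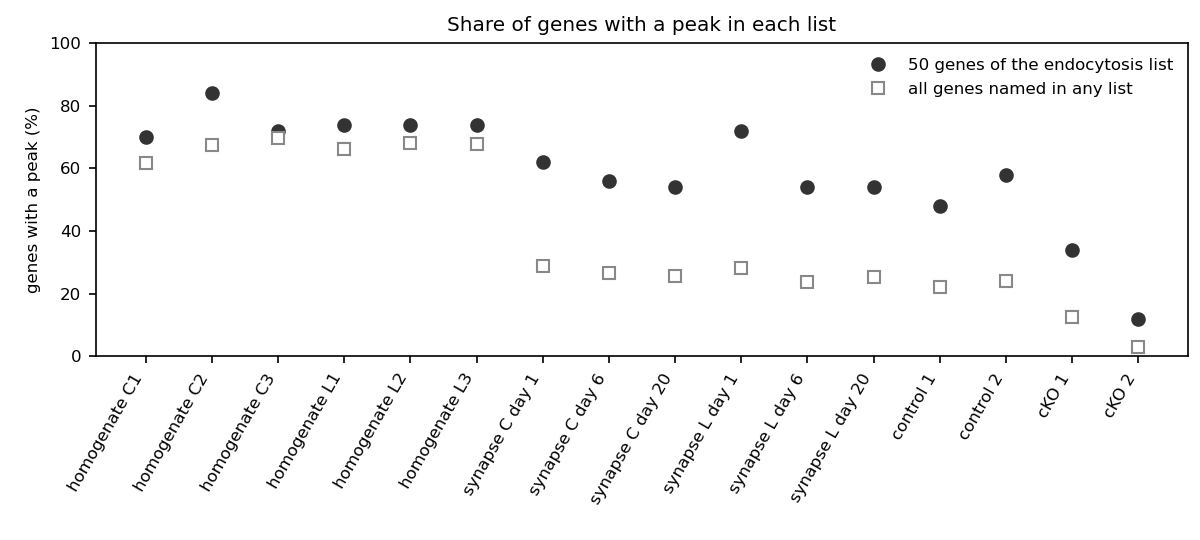
Share of genes with a peak in each list, in %, for the 50 genes of the endocytosis list (filled circles) and for all 13143 named genes (open squares). The list lies at 54.0% to 72.0% in the synapse lists, where all genes lie at 23.8% to 28.8%. Genes beyond the end of synapse L of day 6 count as without a peak in it.

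Of this list, Itsn1, Epn1 and Fnbp1 had the most peaks over the homogenate and synapse lists, followed by Dyrk1a and Synj2 with equal means. Itsn1, the scaffold intersectin 1, had 6.67 ± 2.16 peaks per homogenate list and 3.83 ± 0.983 per synapse list (SD, n = 6 each; exact permutation p = 0.045, adjusted p = 0.166). Epn1, the adaptor epsin 1, had 5.33 ± 1.51 and 3.83 ± 2.14, Fnbp1, a membrane-bending F-BAR protein, 4.17 ± 0.983 and 3.33 ± 1.97, and Dyrk1a, a kinase that phosphorylates dynamin and synaptojanin, 4.33 ± 1.21 and 3.0 ± 1.67. None of them passed the test. In the cKO set Epn1 had 5 and 6 peaks in the controls and Pacsin1, another membrane-bending partner of dynamin, 4 and 5, and both had 0 in each cKO list. Dyrk1a had 4 and 3 in the controls and 2 and 1 in cKO, and Itsn1 3 and 4 and 2 and 0. Of the 50 genes, 36 had a peak in any list of the cKO set, 20 had one in both controls, and 10 of these 20 had none in a cKO list. Of the 4188 genes that the cKO set names, 2302 had one in both controls, and 1414 of these 2302 had none in a cKO list. The pattern thus held for 10 of 36 genes of the list, against 33.8% of the 4188.

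Relatives of the 4 genes, named after their values were seen, had peaks in 11 to 15 lists. Dnm2, the dynamin of all tissues, had peaks in 12 lists, with 2.17 ± 0.753 per homogenate list (n = 6) and 0.80 per synapse list (n = 5; exact permutation p = 0.045, adjusted p = 0.166). Synj2, the second synaptojanin, had 49 peaks in 15 lists, with means of 3.67 in homogenate and in synapse. Picalm, the close relative of AP180 in other tissues, had 12 peaks in 11 lists and means of 0.833 in both.

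The 4 genes did not share 1 pattern over the lists. Over the 15 lists that reach the whole genome, Synj1 and Snap91 differed least, by a summed absolute difference of 7 peaks, and Dnm1 and Dnm3 most, by 14. Among all genes, those near to Dnm1 included Tmem178, at a summed difference of 5, and Gspt2, at 6. Those near to Dnm3 included Spin1, at 5, and Actn1, at 6. Rgs14 and Camkk1 were each 4 from Synj1, and Tmed7 and Gphn 3 and Ak4 4 from Snap91. Up to 20 genes were as near to a member as the gene named, and the measure describes numbers of peaks alone.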

How the data were processed

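Total RNA of hippocampus homogenate or synapse fraction was captured with an ac4C antibody, per the labels' protocols. FastQC, cutadapt 1.9.3 and HISAT2 2.0.4 are named in the submitters' processing notes, with mm10 as the build. The peak caller is not given in the sources used here. The authors deposited 1 peak list per captured library, so peaks were called per sample. Per the file headers, each row gives a position, a gene name, a fold enrichment (a ratio) and −log10 p and q values. Every deposited fold is above 2.

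Symbols were updated through RefSeq synonyms of GRCm38.p6 (214 of 13302 names), and promoter windows are RefSeq's. Peak numbers per gene were compared by exact two-sided permutation tests over lists, with Benjamini-Hochberg adjustment over all genes with a peak (threshold 0.05, Python 3.11.15, numpy 2.4.6, pandas 2.3.3), and the code was tested on simulated lists. Fraction labels were exchanged within C and within L (400 assignments), and C and L within homogenate or a synapse day (160). Alternatives were scaling per 10000 peaks, a fold of at least 5, a −log10 p of at least 10, joining within 500 bp, counting by gene span, presence, covered bases, and leaving out each list. Genes named are the 4 members, up to 4 of the 50 listed per comparison with most peaks, and the 3 nearest in peak numbers per member, some of which are not reported here. The members and lists were chosen with earlier results of these data known. Homogenate lists of 1 number deviated together (correlations of 0.314, 0.221 and 0.116 over 12908 genes), so the numbers were taken to pair them, from the data and not the labels. The main tests did not use this pairing. It entered only the averaged lists and the replicate block, in which labels are exchanged within a number. The first homogenate L list carries the number 2 in its peak names and was kept under its own number. The 16 input libraries have no list used here.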

Additional observations from a re-analysis of the deposited data

How the results depend on the processing

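Over 293 alternatives to the differences of the 4 genes counted by name, 1 passed the threshold. It was Synj1 counted by span, peaks named Cfap298 included, in synapse against homogenate. Alternatives of L against C in homogenate cannot give a p under 0.1, and those of the cKO set none under 0.33, so none of these could pass. The same holds for averaged pairs of lists, so the count of 1 does not measure how stable the results are. The replicate block changes only which labels are exchanged, so the differences in means stay the same by design. With so few pairs in homogenate and in the cKO set it cannot give a p under 0.05, so no call was possible there. Over both fractions the block changed no call. In synapse against homogenate, scaling per 10000 peaks turned Dnm3 to 0.64 and Synj1 to 0.39, and gave 627 genes and 6 of the endocytosis list with more peaks. Counting by span gave 1 call, Synj1 at -3.5, and turned Snap91 to -3.33, as did covered bases (-59.7 bases) and day 6 lists alone (-0.83). A fold of at least 5, day 6 lists alone and averaged pairs of lists each left 0 genes called in either direction and 0 of the endocytosis list, Ston1 included, the last 2 of these with fewer units to exchange. A −log10 p of at least 10 left 5 genes with more peaks and 0 of the endocytosis list with fewer, presence left 6 with more, and covered bases gave 2957 genes (22.5%) and 16 of the list (32%) with fewer. Leaving out 1 list gave 0 to 2019 genes with fewer peaks, 0 to 18 with more and 0 to 2 of the list with fewer, and the counts of 0 came without synapse L of day 1 or day 20.

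The alternatives of the counts by span were chosen after seeing the data. By span, Synj1 was -1.33 per 10000 peaks, -1.67 with a fold of at least 5, -0.33 by presence, -3.5 with averaged pairs and -3.83 on day 6 alone, none of which passed, and -3.77 to -3.17 without 1 list. Snap91 by span passed at -3.33 where labels were exchanged over all of its lists without regard to C and L. For Snap91 these were 5 synapse and 6 homogenate lists. Dnm3 by span turned to 0.22 per 10000 peaks. For Dnm3, L against C over both fractions turned to 0.17 with a fold of at least 5, with a −log10 p of at least 10 and by span, and ran from -0.43 to 0.17 without 1 list, highest without homogenate C1. In homogenate, Dnm3 ran from -0.33, without C3, to 1.17 and Snap91 from -0.83 to 0.17, without C2. Snap91 in synapse against homogenate ran from -0.083, without synapse C of day 20, to 0.42. In the cKO set, a fold of at least 5 left 1 of the 4 genes, Snap91, with peaks in both controls alone. The share of all genes at that cutoff was not computed. The causes of these changes were not tested.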

Other observations

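Dnm1 and Dnm3 host microRNA genes on the opposite strand. Mir199b lies in Dnm1 at chr2:32318460-32318569, and Mir199a-2 and Mir214 lie in Dnm3 at chr1:162217814-162217923 and chr1:162223368-162223477. No peak of any list overlapped these hairpins, and the nearest Dnm1 or Dnm3 peaks were 17.1, 137 and 132 kb away.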
